A study of Mus musculus with 6 samples.

Results

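The genes described here encode the enzymes and regulators of sterol and fatty acid synthesis, 30 in all, measured in mouse embryonic stem cells that were differentiated for 2 days with or without knockdown of Geminin. They were chosen by name: 7 genes of the mevalonate arm, 11 of the steps from squalene to cholesterol, 4 regulators and sterol carriers, and 8 genes of fatty acid synthesis and desaturation. For each gene a probe set annotated to its symbol alone was taken, the one of highest mean signal where there were several. For Acat2, of the mevalonate arm, no such probe set was found, so it was not analysed here. The other 29 all lay above the filter on low signal, a mean of 20.1, and were tested among 14185 genes.

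The cells were derivatives of the embryonic stem cell line E14TG2a (strain 129P2), kept in N2B27 medium, which lacks serum and allows neural differentiation; the labels call the tissue neurectoderm. Every culture, controls included, carried a short hairpin RNA embedded in a microRNA (shRNAmir) that doxycycline switches on and that targets Gmnn, the gene of the replication licensing inhibitor Geminin. The knockdown cultures (GemKD) received 500 ng doxycycline, as the labels give the dose, and the uninduced controls received none, so an effect of doxycycline and one of the knockdown cannot be told apart. In each of 3 independent experiments 1 GemKD and 1 control culture were compared on Affymetrix Mouse Genome 430 2.0 arrays, which gave 3 arrays per group. Experiments 1 and 3 used the line with shRNAmir 11 and experiment 2 the line with shRNAmir 9; whether each line is a single clone is not given in the sources used here.

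Cholesterol is built from acetyl-CoA through mevalonate, farnesyl diphosphate and squalene, and long-chain fatty acids are built from the same precursor through malonyl-CoA. When membrane sterol is low, the SREBP transcription factors are carried from the endoplasmic reticulum to the Golgi, cleaved there, and switch on the genes of both pathways, whereas Insig proteins hold them back when sterol is plentiful. Serum lipoproteins normally cover part of a cell's need for cholesterol, and cells in serum-free medium depend more on their own synthesis.

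The control regions of these genes are shown for 4 members, because they carry the letters that the pathway's known regulators read and because they include genes that did and did not differ between experiments below. A RefSeq window of 250 bases before a transcription start (GRCm38.p6) was found for 23 of the 30 members. None was found for Fdps, Fdft1, Sqle, Stard4, Scd1, Scd2 and Fads1. The letters searched, on either strand, were TCACNCCAC (a strict form of the sterol regulatory element), CCAAT (NF-Y), GGGCGG (Sp1) and CACGTG (the E-box). Every match is set in capitals. Hmgcs1, at chr13:119690101-119690350 on the plus strand, has all of them but the E-box. Insig1 is at chr5:28071162-28071411 on the plus strand, Hsd17b7 at chr1:169969206-169969455 on the minus strand, and Ebp at chrX:8193513-8193762 on the minus strand.
Hmgcs1: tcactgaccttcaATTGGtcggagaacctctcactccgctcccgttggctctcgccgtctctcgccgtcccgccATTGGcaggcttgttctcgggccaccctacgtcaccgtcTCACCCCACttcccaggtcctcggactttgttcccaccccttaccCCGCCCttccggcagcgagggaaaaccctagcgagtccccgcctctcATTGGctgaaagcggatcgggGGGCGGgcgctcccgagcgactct
Insig1: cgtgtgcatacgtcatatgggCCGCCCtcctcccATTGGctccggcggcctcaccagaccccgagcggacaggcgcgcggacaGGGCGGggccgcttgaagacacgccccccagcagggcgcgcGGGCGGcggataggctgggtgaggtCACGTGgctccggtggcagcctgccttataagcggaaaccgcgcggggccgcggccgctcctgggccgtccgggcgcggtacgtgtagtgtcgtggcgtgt
Hsd17b7: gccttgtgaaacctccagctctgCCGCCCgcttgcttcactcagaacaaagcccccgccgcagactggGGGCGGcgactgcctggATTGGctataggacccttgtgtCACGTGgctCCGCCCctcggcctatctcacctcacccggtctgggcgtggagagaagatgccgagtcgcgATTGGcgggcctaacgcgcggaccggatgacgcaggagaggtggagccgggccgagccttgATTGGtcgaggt
Ebp: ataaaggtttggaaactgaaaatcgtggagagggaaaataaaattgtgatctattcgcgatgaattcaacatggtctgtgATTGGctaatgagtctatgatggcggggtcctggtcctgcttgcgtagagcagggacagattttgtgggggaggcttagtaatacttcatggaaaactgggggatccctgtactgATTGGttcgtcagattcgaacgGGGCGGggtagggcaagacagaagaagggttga

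The sterol regulatory element of Hmgcs1, TCACCCCAC, lies 137 to 129 bases before the start, and Hmgcs1 was the 1 member of 23 with these letters, against 1.22% of 27025 genes with such a window. Forms of the element that differ from the letters searched were not counted, so a member without a match may still have one. CCAAT was found in 18 of 23 members (78.3%) and in 37.5% of all genes. GGGCGG was found in 19 of 23 members (82.6%) and in 35.4% of all genes, and CACGTG in 4 of 23 (17.4%) and in 6.86%. A match is a description of the letters and not a measured binding site. Among the 4 regions printed, Ebp has CCAAT at 2 places and GGGCGG at 1, Hsd17b7 has each at 3 places and an E-box 143 to 138 bases before the start, and Insig1 has CCAAT at 1 place, GGGCGG at 3 and an E-box.

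The arrays followed their labels, and experiment 3 stood apart. The mean Gmnn signal was 3499 ± 50.9 in controls (SD, n = 3), compared with 1307 ± 345 after knockdown (SD, n = 3), or 27.6%, 48.0% and 36.7% of the control in experiments 1, 2 and 3. The groups did not overlap (exact two-sided permutation p = 0.1, the smallest that 3 arrays against 3 allow). Its log2 difference was -1.44, with a limma adjusted p of 0.338 in the fit without a block and 2.76e-06 in that blocked by experiment. The neural marker Sox1 lay between 2108 and 2443 in experiments 1 and 2 but at 523 and 577 in experiment 3, and Pax6 between 614 and 823 against 135 and 158. Nanog lay between 1565 and 2434 against 288 and 341, Fgf5 between 93.8 and 161 against 577 and 664, while Pou5f1 (7338 to 7711 over all arrays) and Nes (245 to 283) overlapped.

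Knockdown was compared with control first, to ask whether the pathway responded to loss of Geminin. No member was called higher or lower in limma, in either fit (without a block or blocked by experiment). The GemKD and control arrays overlapped in every member (0 of 29 without overlap, against 4.33% of all genes, 2.09% higher and 2.24% lower). The log2 differences ran from -0.13 (Pmvk) to 0.09 (Dhcr7) with a median of 0.02, and the median over all genes tested was 0.002. Of all genes, the fit without the block called 0.00705% and the blocked fit 0.0352%, so a count of 0 among 29 is near the background. At an unadjusted p under 0.05 there were 0 members without the block, where 0.867% of all genes passed, and 1 of 29 with it (Scd2), near the 4.76% of all genes; no other tool was run.

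The intervals were narrow enough to bound the response in the probe set used for each gene. With the experiment as a block, the 95% interval of every one of the 29 members lay inside a 1.5-fold change, reaching from -0.27 at the lowest (Pmvk) to 0.27 at the highest (Hsd17b7). Their median half-width was 0.11, against 0.21 over all genes. Without the block 1 interval, that of Ebp, passed 1.5-fold (-0.64 to 0.77). The further probe sets above the filter had differences from -0.15 (Cyp51) to 0.26 (Scd2), and no interval was computed for them. The plot of differences with intervals shows the members side by side.

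**Figure D1:**
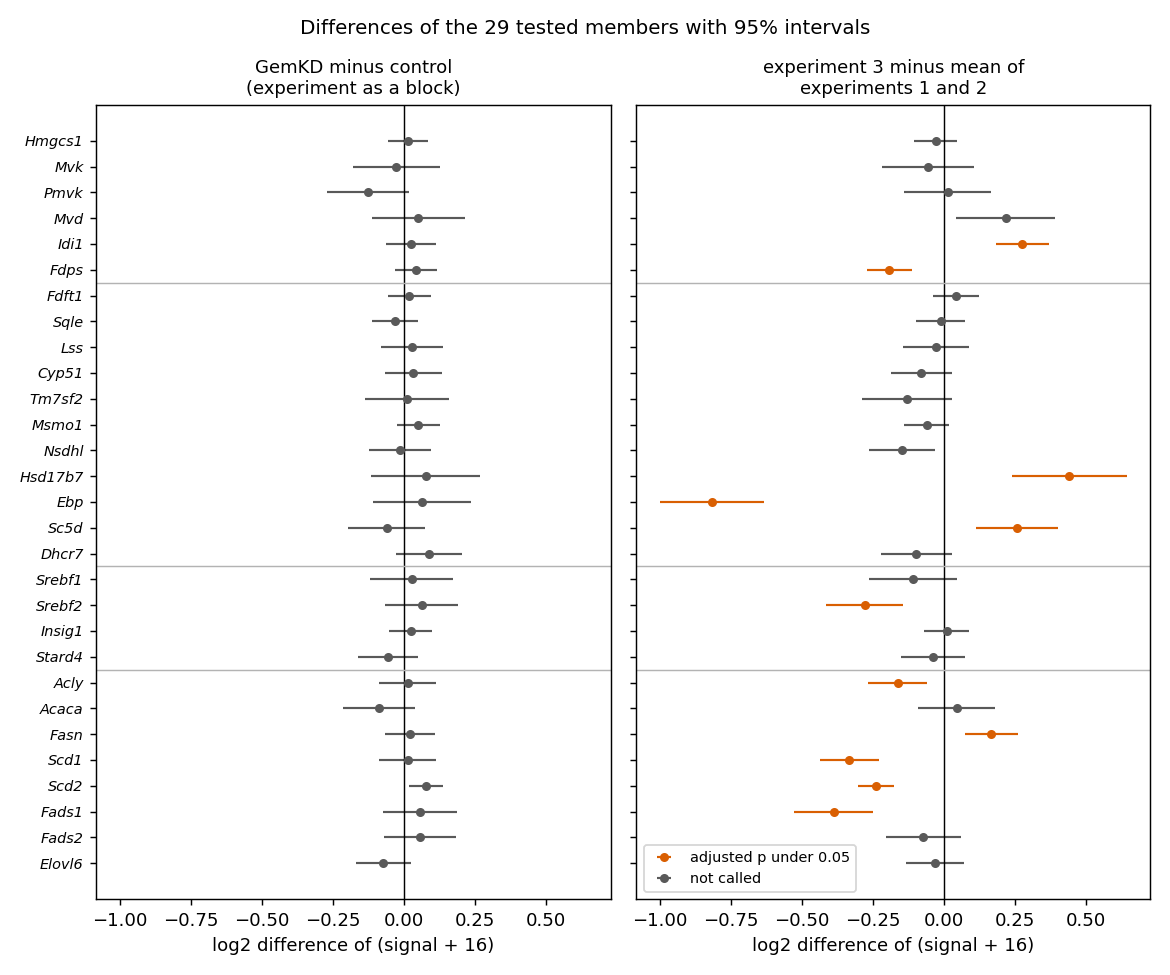
Log2 differences of the 29 members tested, GemKD minus control with the experiment as a block (left) and experiment 3 minus the mean of experiments 1 and 2 (right), each as a point with its 95% interval from limma; grey lines part the 4 role groups. On the left every interval lies between -0.27 and 0.27 and no member was called, and on the right 11 members were called (orange), with Ebp lowest at -0.82 and Hsd17b7 highest at 0.44.

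Within the mevalonate arm, Hmgcs1, which makes HMG-CoA, had signals of 8216, 8224 and 7718 in the controls of experiments 1, 2 and 3 and of 8078, 8062 and 8267 in GemKD. The log2 difference was 0.02 (SE 0.03) and the groups overlapped, although GemKD of experiment 3 was the highest array and its control the lowest. Mvk and Pmvk, the kinases that phosphorylate mevalonate, had -0.03 (SE 0.07) and -0.13 (SE 0.07). Pmvk was lower in GemKD in all 3 experiments, from 863, 1048 and 952 in the controls to 829, 901 and 882, and its blocked adjusted p was 0.997. Mvd, the decarboxylase that yields isopentenyl diphosphate, had 0.05, its isomerase Idi1 0.02, and Fdps, the farnesyl diphosphate synthase, 0.04.

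From squalene to cholesterol the differences were of like size. Sqle, the squalene epoxidase and a rate-limiting step of the pathway, had signals of 4717, 4967 and 4864 in the controls and of 4831, 4728 and 4690.5 in GemKD (log2 difference -0.03, SE 0.04). Fdft1, the squalene synthase, had 0.02, the lanosterol synthase Lss 0.03 and the lanosterol demethylase Cyp51 0.03. Dhcr7, which catalyses the last reduction to cholesterol, had the highest difference of all members, from 1644, 1661 and 1602 to 1782, 1822 and 1625 (0.09, SE 0.05, blocked adjusted p = 0.997). It was higher in each experiment, but the GemKD array of experiment 3 lay below both other controls. The rest of the 11, Tm7sf2, Msmo1, Nsdhl, Hsd17b7, Ebp and Sc5d, lay between -0.06 and 0.08.

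Among the regulators, Srebf2, which encodes the SREBP that chiefly drives sterol genes, had 1770.1, 1719.72 and 1554 in the controls and 1921, 1923 and 1462 in GemKD. It was higher in experiments 1 and 2 (log2 ratios 0.12 and 0.16) and lower in experiment 3 (-0.09). Insig1, whose product retains the SREBPs and whose gene is itself an SREBP target, had 5741, 6135 and 5785 against 5789.85, 6031 and 6151 (0.03, SE 0.04). Srebf1, of the SREBP that chiefly drives fatty acid genes, had 0.03, and Stard4, a sterol carrier protein, -0.06.

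In fatty acid synthesis, Scd2 came nearest to a difference. This stearoyl-CoA desaturase, which makes monounsaturated fatty acids, had 9777, 9518 and 8276 in the controls and 10344, 10204 and 8600.3 in GemKD. Each GemKD array lay above its own control, with log2 ratios of 0.08, 0.10 and 0.06, while the groups as a whole overlapped because both arrays of experiment 3 were lowest. The difference was 0.08 (SE 0.03, 95% interval 0.02 to 0.14; blocked adjusted p = 0.905). In the further probe sets of Scd2 it was 0.16 and 0.26. In the one with 0.26, GemKD of experiment 3 lay below its control (800 against 958). There the gap was widest in experiment 2, at 1563 in GemKD and 908 in the control. In the one with 0.16 the arrays of experiment 3 were nearly level, at 3161 in GemKD and 3127 in the control. Fasn, the fatty acid synthase, had 0.02 (SE 0.04), Acly, which supplies cytosolic acetyl-CoA, 0.01, and the acetyl-CoA carboxylase Acaca -0.09 (SE 0.06). The desaturases Scd1, Fads1 and Fads2 had 0.01, 0.06 and 0.06, and the elongase Elovl6 -0.07.

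The direction was the same in all 3 experiments for 8 of 29 members, 4 of them higher in GemKD (Fdps, Msmo1, Dhcr7, Scd2) and 4 lower (Pmvk, Sc5d, Acaca, Elovl6). Over all genes 23.9% kept 1 direction, 12.2% higher and 11.7% lower. The median log2 ratio of the members was 0.02 in experiment 1, -0.01 in experiment 2 and 0.003 in experiment 3, where 18, 13 and 15 of the 29 were positive. The medians over all genes were -0.01, -0.02 and 0.03. Leaving out both arrays of experiment 3 also gave 0 members called, where 0.197% of all genes were called.

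Whether the response to knockdown itself differed in experiment 3 was tested by an interaction term in limma. No member was called, and 0.0141% of all genes were. At an unadjusted p under 0.05 there was 1 member of 29, Srebf2 (difference of effects -0.23, 95% interval -0.43 to -0.02), a smaller share than the 13.1% of all genes. The 2 hairpin lines, as experiments 2 and 1, were compared in the same way as experiment 3 below. In this comparison line and experiment cannot be told apart. Again no member was called, against 0.106% of all genes, and 4 of 29 members had an unadjusted p under 0.05, against 4.46% of all genes. These 4 were Hsd17b7 (-0.27), Pmvk (0.20), Fdft1 (-0.15) and Elovl6 (0.12).

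**Figure D2:**
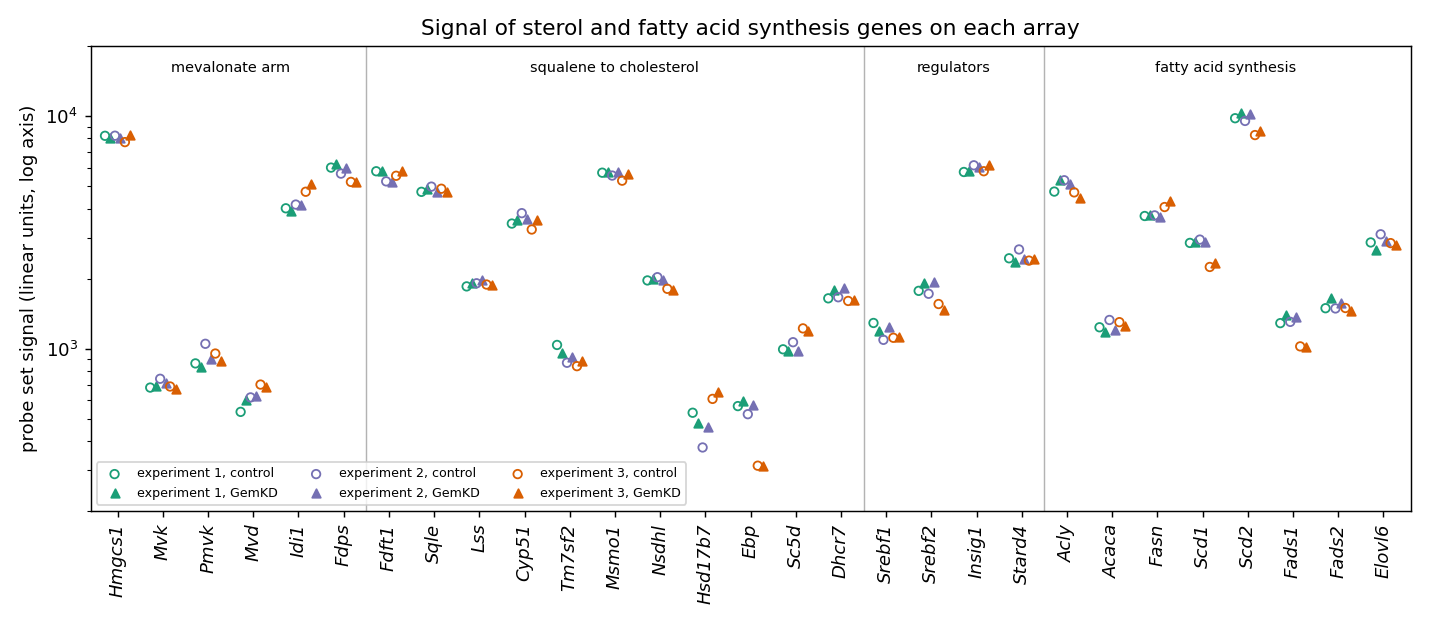
Signal of each member on each of the 6 arrays (linear units on a log axis), with control arrays as open circles and GemKD arrays as filled triangles, coloured by experiment; signals of different genes come from different probe sets and are not comparable in level. Both arrays of experiment 3 lie below the other 4 for Ebp (312 and 314 against 522 to 595) and above them for Hsd17b7 (607 and 648 against 376 to 530), and GemKD and control arrays overlap in every member.

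Experiment 3 was then set beside experiments 1 and 2, with the GemKD and control arrays as a covariate. In experiment 3, 11 of the 29 members were called in limma, 4 higher and 7 lower, or 37.9%. Over all genes tested 34% were called, 11.9% higher and 22.1% lower, so the members' share is near the background. The differences of the members were small in size. Only Ebp passed 1.5-fold (1 of 29, 3.45%, against 9.29% of all genes), and the median size of the log2 difference was 0.11, against 0.19 over all genes. The median with its sign was -0.06, and -0.04 over all genes. The members were bright, with no array below 312, where the filter was 20.1. Their differences were not set beside those of genes of like signal. Both arrays of experiment 3 lay outside the range of the other 4 in 14 members, 5 higher and 9 lower, where the background is 50.7%, 19.7% higher and 31% lower. Of the 11, 4 were called in a fit without the intensity trend, namely Ebp, Hsd17b7, Scd1 and Fads1. When all probe sets of each gene were averaged, 6 of the 11 were called and Srebf2, Fdps, Sc5d, Acly and Fads1 were not. That average takes in probe sets below the filter, 1 of Fdps (mean signal 6.46) and 2 of Acly (12.7 and 6.28). Averaging only those above the filter, an alternative added after seeing the data, kept 8 of the 11. Fdps was then called (-0.19, against -0.04 in the average of all) and so was Srebf2, but not Sc5d (0.18, adjusted p = 0.109), Acly (-0.15, 0.0607) or Fads1. The arrays of experiment 3 come from 1 experiment, so these p-values cover the spread between arrays and not that between experiments. In RNA of whole cultures, fewer cells of a kind and less RNA per cell cannot be told apart.

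Markers of some cell states moved with experiment 3, where 34% of all genes were called, 11.9% higher and 22.1% lower. Of 12 naive pluripotency markers 10 were lower, with a summed signal of 5986 to 6555 in its arrays against 12049 to 15182 in the others. Of 5 general pluripotency markers 1 was lower and 0 higher (24802 to 25007 against 25924 to 26982). Of 10 neural progenitor markers 5 were lower and 1 higher (sums of 8268 to 8805 against 11635 to 12352), and of 7 primed epiblast markers 6 were higher and 1 lower (26909 to 27421 against 19505 to 21956). Among other lineages 0 of 3 mesoderm and 0 of 6 endoderm markers were called, with summed signals of 579.55 to 646 against 626 to 768 and of 426 to 433 against 324 to 483. Mixl1, Gsc, Evx1 and Kdr of the mesoderm list and Afp of the endoderm list had probe sets, all below the filter. Of 5 trophoblast markers 2 were higher and 1 lower (1178 to 1219.56 against 1287 to 1544), with Elf5 and Gata3 below the filter. Of 5 neuronal markers 3 were higher and 1 lower (2377 to 2596 against 2335 to 2463), with Dcx and Neurog1 below the filter, and of 7 fibroblast markers 2 were higher and 5 lower (4416 to 4467 against 4905 to 5549). A summed signal mostly follows the brightest genes of its list. Tfap2c of the trophoblast list (-1.85) and Vim of the fibroblast list (-0.41) were lower, while the dimmer Krt18 (1.49) and Tagln (2.14) were higher. The part of these shifts in the differences below was not tested. Sox1, at a log2 difference of -2.04, and Nanog, at -2.61, lay far outside the range of the sterol and fatty acid genes, which the distribution over all genes shows.

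**Figure D3:**
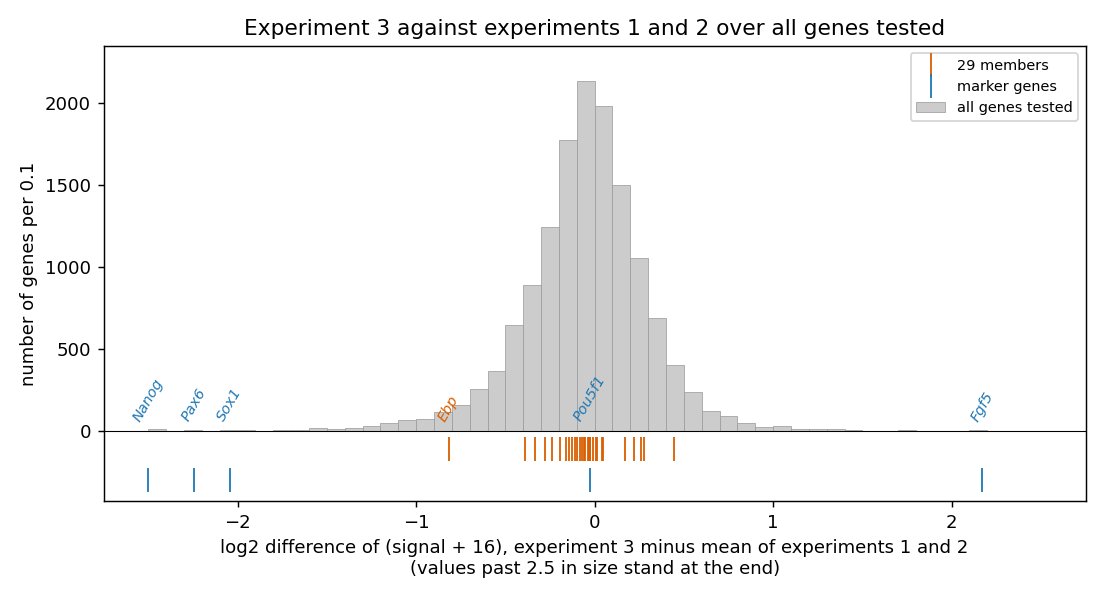
Number of genes by log2 difference between experiment 3 and the mean of experiments 1 and 2 (grey bars, 14185 genes in bins of 0.1), with a tick for each of the 29 members (orange) and for 5 marker genes (blue). The members lie between -0.82 (Ebp) and 0.44 (Hsd17b7), with a median of -0.06, while Nanog (-2.61, drawn at the end of the axis), Pax6 (-2.24) and Sox1 (-2.04) lie far below and Fgf5 (2.17) far above.

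Ebp had the largest difference of the members. It encodes the sterol isomerase that moves the double bond of the sterol ring late in cholesterol synthesis. Its signal was 566, 522 and 314 in the controls of experiments 1, 2 and 3 and 595, 572 and 312 in GemKD. Both arrays of experiment 3 lay well below the other 4, whose mean was 564 ± 30.5 (SD, n = 4). The log2 difference was -0.82 (SE 0.09, adjusted p = 4.85e-06), 1.76-fold lower, with -0.86 against experiment 1, which used the same hairpin line, and -0.77 against experiment 2. Ebp had 1 probe set, so no further probe set could be compared.

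The other late sterol genes that were called went up. Hsd17b7, the sterol 3-keto reductase, had 530, 376 and 607 in the controls and 479, 459 and 648 in GemKD (log2 difference 0.44, SE 0.10, adjusted p = 0.00226, 1.36-fold higher). Its 3 further probe sets had 0.40, 0.14 and 0.25. Sc5d, which introduces the next double bond after Ebp acts, had 992, 1065 and 1221 in the controls and 978, 979 and 1185 in GemKD (0.26, SE 0.07, adjusted p = 0.00794), and its further probe sets had 0.18 and 0.11. Ebp and Sc5d, which act in succession, thus differed from the other experiments in opposite directions. The remaining 8 of these 11 genes were not called. Nsdhl had -0.15 (adjusted p = 0.0515), and Sqle (-0.01), Lss (-0.03), Fdft1 (0.04) and Msmo1 (-0.06) lay nearest to 0 with SEs of 0.04 to 0.05. Cyp51, Dhcr7 and Tm7sf2 had -0.08, -0.10 and -0.13, and the further probe sets of Cyp51 had -0.20 and -0.22. Those of Lss, at mean signals of 750 and 84.2, had 0.22 and -0.27. A further probe set of Msmo1, at 124, had 0.27, and that of Fdft1 above the filter, at 5080, had -0.01.

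In the mevalonate arm, Idi1 was higher and Fdps lower in experiment 3. Idi1 had 4008, 4159 and 4722 in the controls and 3894, 4157 and 5118 in GemKD, and a log2 difference of 0.28 (SE 0.04, adjusted p = 2.13e-04). Its further probe set had 0.29, but there the arrays overlapped. The control of experiment 3, at 2569, lay below that of experiment 1, at 2604, while GemKD of experiment 3 was at 3412. Fdps, which acts on the product of Idi1, had 5997, 5649.68 and 5205 in the controls and 6210.4, 5965 and 5217 in GemKD, and a difference of -0.19 (SE 0.04, adjusted p = 0.00102). Mvd had 0.22 (adjusted p = 0.0512). It was called higher under several alternatives, quantile normalization among them (0.29, adjusted p = 0.015). In a further probe set of Mvd the difference was 0.13, and the arrays overlapped. Hmgcs1, whose control region holds the sterol regulatory element printed above, had -0.03 (95% interval -0.10 to 0.05), Mvk -0.06 and Pmvk 0.01.

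Of the regulators, Srebf2 alone was called, at a difference of -0.28 (SE 0.06, adjusted p = 0.00349). Its arrays of experiment 3, at 1554 and 1462, lay below the other 4 (1719.72 to 1923), and a further probe set of nearly the same brightness had -0.12. Without the GemKD array of experiment 3 the call was lost (-0.17, adjusted p = 0.0801; range over all alternatives 4.11e-04 to 0.0809). Insig1 had 0.01 (95% interval -0.07 to 0.09), Stard4 -0.04 and Srebf1 -0.11 (adjusted p = 0.28). The further probe sets of Stard4, at mean signals of 1663 and 1266, went the other way, with 0.16 and 0.12.

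In fatty acid synthesis 5 of 8 genes were called, 4 lower and 1 higher, where 34% of all genes were called, 22.1% lower and 11.9% higher. Scd1 had 2845, 2940.4 and 2242 in the controls and 2876, 2873 and 2334 in GemKD, so that the arrays of experiment 3 stood below 4 others that lay within 2845 to 2940.4. Its difference was -0.33 (SE 0.05, adjusted p = 1.14e-04), but a further probe set of Scd1, at a mean signal of 1159.58, had 0.02. Scd2 had -0.24 (SE 0.03, adjusted p = 2.46e-05), and its further probe sets, at mean signals of 3940.1 and 1209, had -0.46 and -0.60. Its brightest probe set therefore gave the smallest of 3 differences, all in 1 direction. In the dimmest, with -0.60, the arrays overlapped, because the control of experiment 2, at 908, lay below that of experiment 3, at 958.

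Fads1, the delta-5 desaturase of polyunsaturated fatty acids, had 1286, 1302 and 1022 in the controls and 1399, 1362 and 1015 in GemKD (log2 difference -0.39, SE 0.06, adjusted p = 3.34e-04). A dimmer probe set of Fads1, at 133 in experiments 1 and 2 and 198 in experiment 3, went the other way (0.53), and the mean of both reversed the direction (0.07, adjusted p = 0.512; range over all alternatives 4.79e-05 to 0.514). Fads2, the delta-6 desaturase, had -0.07 and was not called. Its further probe sets, at mean signals of 1176 and 271, went the other way, with 0.18 and 0.20, and in both the arrays overlapped. Acly had -0.16 (SE 0.05, adjusted p = 0.019), with -0.22 and -0.28 in the next brightest probe sets. Fasn, by contrast, was higher, with 3714, 3736 and 4059 in the controls and 3738, 3671 and 4296 in GemKD (0.17, SE 0.04, adjusted p = 0.00774). Without the GemKD array of experiment 3 neither Acly (-0.09, adjusted p = 0.29) nor Fasn (0.12, 0.102) was called, and Acly also was not called without the GemKD array of experiment 1 (-0.10, 0.144). Over all alternatives the adjusted p ran from 2.85e-04 to 0.551 for Acly and from 0.00355 to 0.152 for Fasn. Acaca had 0.05 and Elovl6 -0.03, and neither was called. The further probe sets of Elovl6, at mean signals of 2578 and 175, went the other way, with 0.12 and 0.49. With the mean of all its probe sets Elovl6 was called higher in limma (0.19, adjusted p = 0.0358).

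How far probe sets of 1 gene told the same story was compared for the 19 members that had more than 1 above the filter. Of 33 further probe sets 20 had the sign of the one used in experiment 3 and 13 the opposite sign. For the 11 called members the counts were 11 and 3 of 14, the 3 being those of Scd1, Fads1 and the dimmest of Acly. Several dim probe sets, picked after their values were seen, were higher in experiment 3 while the brighter one was near 0 or lower. They were those of Fads1 (0.53), Acaca (0.51), Elovl6 (0.49) and Hmgcs1 (0.39), at mean signals of 154, 80.7, 175 and 262.

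**Figure D4:**
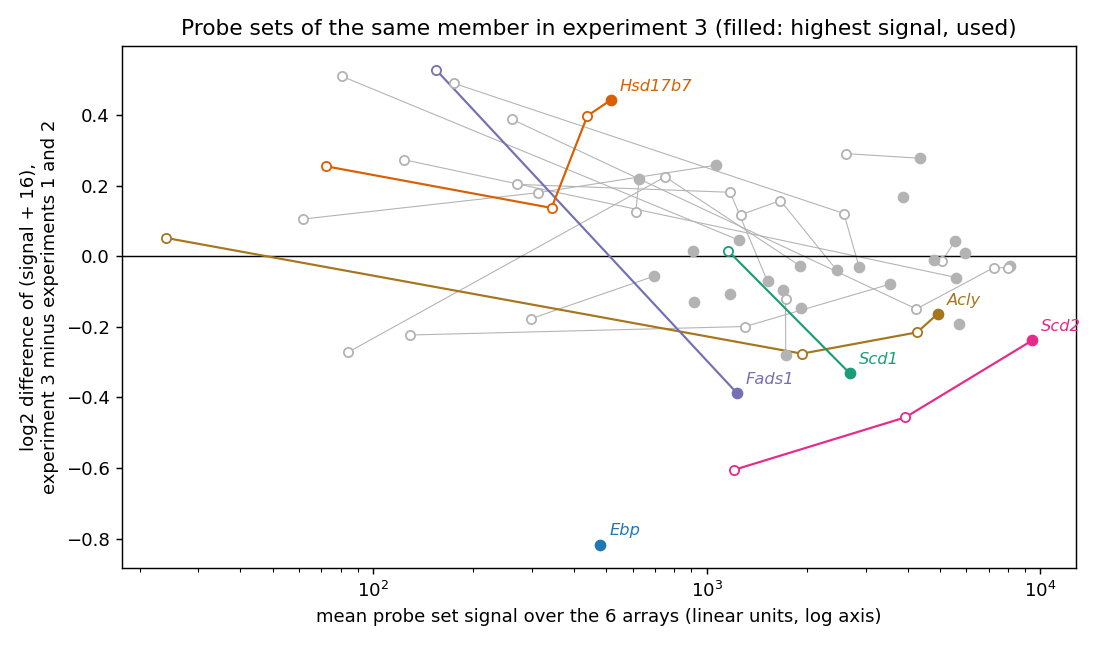
Log2 difference between experiment 3 and the mean of experiments 1 and 2 for each probe set of the members above the filter, against its mean signal over the 6 arrays (log axis); lines join probe sets of 1 gene, filled points are those used and open points the further ones. The 3 probe sets of Scd2 all lie below 0 (-0.24, -0.46 and -0.60), the 4 of Hsd17b7 all above, and those of Fads1 on either side (-0.39 and 0.53).

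Other genes of the pathway, from lists drawn up for this comparison, were looked at in the same fits. Of 19 further genes of the SREBP pathway 16 were tested, and of 11 genes of LXR signalling and sterol export 8. In limma 0 of these 24 were called in GemKD with or without the block, and at an unadjusted p under 0.05 there were 0 in either list without the block and 1 in each with it, where 0.867% and 4.76% of all genes passed. In experiment 3 the SREBP list had 1 gene higher and 8 lower, 56.3% against a background of 34%, and a median log2 difference of -0.15. Acss2, which makes acetyl-CoA from acetate, had 252, 279 and 139.77 in the controls and 311, 302 and 149.54 in GemKD (-0.91, SE 0.11, adjusted p = 1.3e-05). Mbtps2, the site-2 protease that releases the SREBPs from the membrane, had -0.55, the acyl-CoA synthetase Acsl3 -0.54 and the malic enzyme Me1 0.46, with SEs of 0.06 to 0.07.

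The sterol export list had 1 gene higher and 4 lower in experiment 3 (62.5%, against 34% of all genes), with a median of -0.24, against -0.04 over all genes. The transporters Abcg1 and Abca1, both LXR targets, went opposite ways. Abcg1 had 95.8, 94.6 and 201 in the controls and 85.8, 70.4 and 264 in GemKD (1.27, SE 0.15, adjusted p = 1.39e-05). Abca1 had 105, 111 and 53.6 in the controls and 87.4, 95.6 and 29.1 in GemKD (-1.04, SE 0.15, adjusted p = 1.14e-04), and the mean of its probe sets gave -0.25, or -0.43 over those above the filter (adjusted p = 0.148 and 0.0185; range over all alternatives 3.07e-07 to 0.148). Apoe, the lipid carrier apolipoprotein, had -0.73 (SE 0.06, adjusted p = 7.29e-07). The sterol hydroxylase Cyp27a1 was dim, at 58.2 in experiments 1 and 2 and 34.3 in experiment 3 (-0.59, adjusted p = 0.021). Its call was lost when GemKD of experiment 1 (-0.49, adjusted p = 0.0813) or of experiment 3 was left out (-0.31, 0.289; range over all alternatives 0.00821 to 0.357).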

How the data were processed

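RNA of 6 cultures was measured on 6 arrays. For 45037 probe sets the authors deposited a linear intensity per array. The sources used here do not give how probes were summarised, background-corrected or normalized. Array medians lay between 59.3 and 60.9, so no further normalization was applied, and precision is limited by how few arrays there are. The platform annotation gave 1 symbol for 34945 probe sets (18193 genes). Genes above the 30th percentile of probe set means (20.1), 14185 in all, were tested on log2(signal + 16), which understates changes of dim genes.

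limma 3.58.1 in R 4.3.3 was used (lmFit, then eBayes with trend on intensity; two-sided tests; adjusted p under 0.05 by Benjamini-Hochberg). GemKD was compared with control without a block; the blocked fit, by experiment, is an alternative. Deviations from the group means correlated within experiments 1, 2 and 3 with 0.489, 0.472 and 0.714, and each experiment had its own control, so the number pairs the arrays. Experiments were compared with condition as a covariate. The labels call the experiments independent and say no more of their source, so p-values measure the spread between these arrays. The fits were tested on simulated data. The members, lists and tests were chosen with earlier results of these data known. Named were all members, Gmnn, 6 markers and up to 4 genes of each further list by size of difference in experiment 3; other choices made after seeing values are marked. Promoter sequences come from RefSeq (GRCm38.p6).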

Additional observations from a re-analysis of the deposited data

How the results depend on the processing

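No member was called between GemKD and control, between experiments 2 and 1, or by the interaction, under any alternative run, the experiment block included, which changed no call of a member. The pairing by experiment raised the count over all genes from 1 to 5. That count was 0 without an intensity trend, 0 to 75 when arrays or experiments were left out, and 28 in the blocked fit without experiment 2 or 3. Between experiments 2 and 1 it was 15, with 7 after quantile normalization, 9 with the mean of probe sets above the filter, 2 without a filter, 1 without the trend and 21 to 114 when an array was left out. The interaction called 2 genes, 1 without a filter, 1 with the mean of all probe sets or of those above the filter and 0 without the trend. In experiment 3, 4822 genes were called, 3031 without the trend. Of the 11 members called there, without the trend 1 was called higher and 3 lower, and these 4 (Ebp, Fads1, Hsd17b7, Scd1) were all among the 11. With the mean of all probe sets 4 were higher and 4 lower, of which 6 were among the 11 and the others were Elovl6 and Nsdhl. Fads1 turned to 0.0706 and Elovl6 to 0.19, as with those above the filter alone (added after seeing the data). Quantile normalization moved the share of calls that were higher from 34.9% to 43.2%. Otherwise 9 to 13 members were called. Mvd and Nsdhl, just above the threshold in the main fit, were gained under some of these alternatives. Ebp, Hsd17b7 and Scd1 kept their call under every alternative with a test, and control or GemKD arrays alone gave -0.76 and -0.87 for Ebp. Where an array was left out, a lone array was assumed to vary like the others. Leaving out an array could not be run for the interaction. With 1 experiment of its kind, experiment 3 has no replicate as an experiment.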
